A study of Mus musculus with 4 samples.

Results

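The 9 genes described here are 8 genes of inherited polycystic disease (Pkhd1, Pkd1, Pkd2, Bicc1, Cys1, Prkcsh, Sec63 and Ganab) and Pkhd1l1, a homolog of Pkhd1. They were chosen by gene symbol, with their levels in these same libraries already known, so the values below describe them and are no independent test. All 9 had a row among the 21878 rows of the expression tables, and all 9 passed the filter on low counts that left 12332 genes. RNA was sequenced from mouse liver progenitor-like cells in culture. The HepLPC group (n = 2 libraries) was grown out of hepatocytes, and the NPC_LPC group (n = 2) out of non-parenchymal liver cells. Both groups came from C57BL/6 mice and were cultured in transition and expansion media. The age label reads 6 to 8 weeks, and the protocol gives 8 weeks.

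The protocol names a lineage model for each source. Hepatocytes are paired with tdTomato mice given AAV8-TBG-Cre, a virus whose TBG promoter is active in hepatocytes, and non-parenchymal cells with AlbCreERT/R26GFP mice, in which the albumin promoter drives an inducible Cre. Mouse line, virus and cell source therefore follow the group and cannot be told apart. The cell type label of HepLPC mentions both sources, and the titles decided the grouping. Nothing says whether libraries came from separate mice or cultures, so p-values measure only the spread between these libraries. In bulk RNA, fewer cells of a type and less RNA per cell cannot be told apart.

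Polycystic diseases fill the kidney, the liver or both with fluid-filled cysts that grow from tubules and bile ducts. Many of the genes act at the primary cilium, the antenna-like organelle of duct epithelium: Pkhd1 encodes fibrocystin, Pkd1 and Pkd2 encode polycystin-1 and polycystin-2, which form a receptor and channel complex, and Cys1 encodes cystin, a small lipid-anchored ciliary protein. Another set acts in the endoplasmic reticulum, where new membrane proteins such as polycystin-1 are inserted, trimmed and folded: Prkcsh and Ganab encode the beta and alpha subunits of glucosidase II, and Sec63 belongs to the protein translocation machinery.

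The RefSeq promoter windows of the reticulum genes held more CG dinucleotides than those of the other members. Each window is the 250 bases before a transcript start in the RefSeq promoter table (GRCm38.p6), on the gene's strand. The table gave a window for 7 of the 9 members, all but Pkhd1l1 and Bicc1. Pkhd1, Pkd2, Ganab and Sec63 are printed for their contrast in CG dinucleotides (the letters CG, which read the same on both strands), shown in capitals.

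Pkhd1, chr1:20618058-20618307, minus strand: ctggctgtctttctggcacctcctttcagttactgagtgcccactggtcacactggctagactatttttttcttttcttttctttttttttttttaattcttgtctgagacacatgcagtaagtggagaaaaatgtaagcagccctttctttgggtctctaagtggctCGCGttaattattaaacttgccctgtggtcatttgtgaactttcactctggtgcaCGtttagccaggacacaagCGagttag

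Pkd2, chr5:104459207-104459456, plus strand: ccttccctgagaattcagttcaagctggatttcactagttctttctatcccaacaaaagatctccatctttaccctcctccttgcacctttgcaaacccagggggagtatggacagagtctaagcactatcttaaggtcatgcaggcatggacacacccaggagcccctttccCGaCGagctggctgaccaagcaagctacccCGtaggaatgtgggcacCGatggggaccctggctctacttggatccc

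Ganab, chr19:8897807-8898056, plus strand: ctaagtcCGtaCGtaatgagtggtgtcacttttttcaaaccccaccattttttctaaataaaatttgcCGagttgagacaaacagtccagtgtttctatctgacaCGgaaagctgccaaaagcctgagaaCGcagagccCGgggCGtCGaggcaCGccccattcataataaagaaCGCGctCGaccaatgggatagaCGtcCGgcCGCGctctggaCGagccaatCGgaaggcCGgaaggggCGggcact

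Sec63, chr10:42761246-42761495, plus strand: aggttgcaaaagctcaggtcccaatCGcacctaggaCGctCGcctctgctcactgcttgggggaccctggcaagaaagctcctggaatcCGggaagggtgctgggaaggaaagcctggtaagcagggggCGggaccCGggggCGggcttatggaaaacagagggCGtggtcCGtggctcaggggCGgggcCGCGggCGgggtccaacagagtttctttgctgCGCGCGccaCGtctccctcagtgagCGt

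CG dinucleotides numbered 24 before Prkcsh, 20 before Ganab and 18 before Sec63, all above the upper quartile of 16 over the 32851 windows of this length in the table. Of all windows, 88.0% held fewer than Prkcsh, 82.1% fewer than Ganab and 78.3% fewer than Sec63. Pkd1 had 16 and Cys1 had 11, while Pkd2 and Pkhd1 had 4 each, below the median of 6, and 37.8% of windows held fewer. RefSeq starts and GENCODE gene models do not coincide everywhere: 182 bases of the Prkcsh window, 116 of the Pkd1 window, 18 of the Cys1 window and 7 each of the Pkhd1 and Pkd2 windows lie inside the GENCODE gene. The Ganab start was not found in the GENCODE transcripts, and its window lies wholly before the GENCODE gene. These letters describe the windows only. Neither methylation nor binding was measured.

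Pkhd1 and Pkhd1l1, the fibrocystin pair, differed between the groups in opposite directions. Fibrocystin is a large single-pass protein of cilia and apical membranes, and fibrocystin-L, the Pkhd1l1 product, is a related large protein known from the stereocilia of hair cells. Pkhd1 lies on chr1:20057779-20618064 (GRCm38, minus strand), and its longest GENCODE M21 transcript has 67 exons and 12935 bases. Pkhd1l1 lies on chr15:44457494-44601369 (plus strand), with 78 exons and 12949 bases, so the pair is nearly equal in transcript length.

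Pkhd1 had 484 and 505 counts in the HepLPC libraries and 1356 and 3334 in the NPC_LPC libraries. After scaling for library size with TMM factors (CPM, the count divided by the scaled library size), these were 26.9 and 28.4 against 74.4 and 165 CPM. The groups did not overlap, and the NPC_LPC libraries themselves lay far apart. The mean was 27.7 ± 1.11 CPM in HepLPC (SD, n = 2) and 119.7 ± 64.1 CPM in NPC_LPC (SD, n = 2), a ratio of 4.33, with a log2 fold change of HepLPC over NPC_LPC of -2.11 (SE 0.42).

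Pkhd1l1 had 246 and 379 counts in HepLPC and 7 and 6 in NPC_LPC, or 13.7 and 21.3 CPM against 0.384 and 0.297 CPM. Both HepLPC libraries lay far above both NPC_LPC libraries, where the gene was close to the limit of detection. Exact Poisson intervals (95%, counting error only) ran from 216 to 279 and from 342 to 419 counts in HepLPC, and from 2.81 to 14.4 and from 2.20 to 13.1 counts in NPC_LPC. The mean was 17.5 ± 5.44 CPM in HepLPC and 0.340 ± 0.0615 CPM in NPC_LPC (SD, n = 2 each), with a log2 fold change of 5.66 (SE 0.54) and a ratio of means of 51.4.

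The length-scaled values (FPKM) gave the levels of the pair relative to each other. Pkhd1l1 stood at 0.75 and 0.979 FPKM in HepLPC and at 0.0128 and 0.0183 FPKM in NPC_LPC, and Pkhd1 at 1.32 and 1.33 FPKM and at 3.48 and 8.39 FPKM. The level of Pkhd1 was thus 1.76 and 1.36 times that of Pkhd1l1 in the HepLPC libraries, and 271 and 457 times in the NPC_LPC libraries. The HepLPC libraries held both fibrocystin genes at low and similar levels, and the NPC_LPC libraries held Pkhd1 nearly alone. Bulk levels do not show whether the same cells carried both. Among genes with a count in the same library, the FPKM of Pkhd1l1 was at the 26.5 and 29.3 percentile in HepLPC and at the 4.31 and 5.71 percentile in NPC_LPC. The counts per FPKM of Pkhd1l1 differed by a factor of 1.67 between libraries, where the low NPC_LPC counts enter, and those of the other 8 members by at most 1.28.

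**Figure D1:**
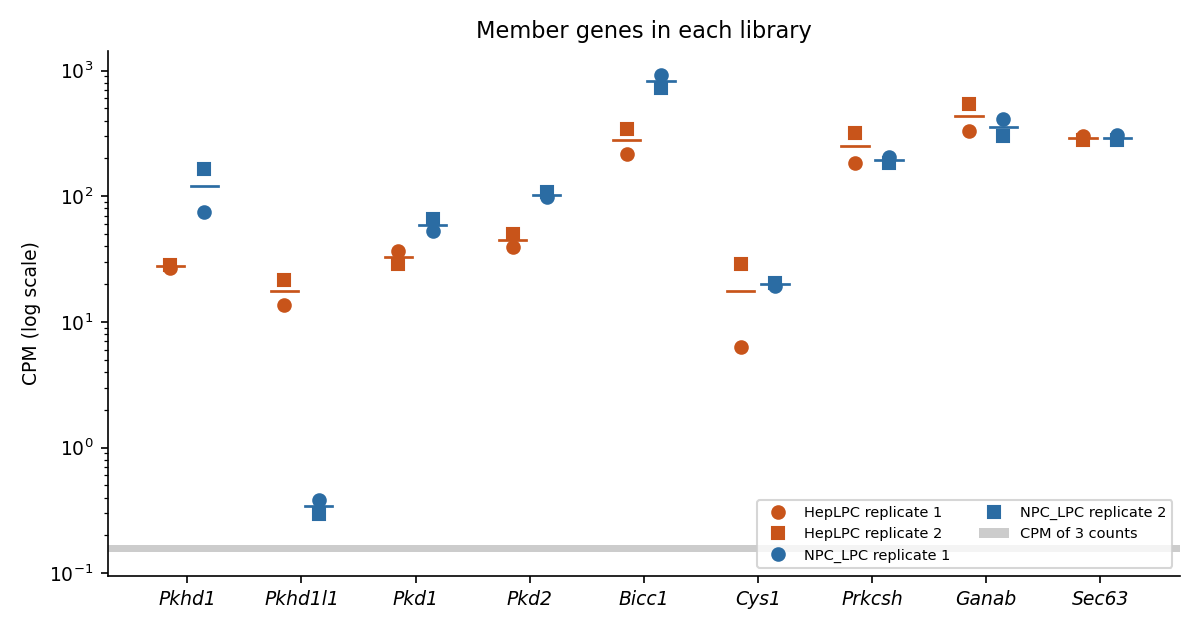
Level of each of the 9 genes in CPM (log axis) in the 2 HepLPC and 2 NPC_LPC libraries, with each point a library, short lines at the group means and a grey band at the CPM of 3 counts. Pkhd1l1 reaches 13.7 and 21.3 CPM in HepLPC against 0.384 and 0.297 CPM in NPC_LPC, Pkhd1, Pkd1, Pkd2 and Bicc1 lie higher in both NPC_LPC libraries, and the points of Cys1, Prkcsh, Ganab and Sec63 overlap.

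The polycystin complex genes both lay lower in HepLPC. Pkd1 (chr17:24549834-24596508), the receptor-like partner, had 36.3 and 28.8 CPM in HepLPC and 52.9 and 66.2 CPM in NPC_LPC. Pkd2 (chr5:104459450-104505819), the channel partner, had 39.3 and 50.5 CPM in HepLPC and 98.1 and 108 CPM in NPC_LPC. Neither gene's groups overlapped. The mean of Pkd1 was 32.6 ± 5.33 against 59.5 ± 9.41 CPM (SD, n = 2 each), with a log2 fold change of -0.87 (SE 0.28). The mean of Pkd2 was 44.9 ± 7.88 against 103 ± 7.09 CPM (SD, n = 2 each), with a log2 fold change of -1.20 (SE 0.25).

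By length-scaled level Pkd2 exceeded Pkd1 in every library. Their FPKM ratio was 1.16 and 1.96 in HepLPC and 2.03 and 1.85 in NPC_LPC, so the NPC_LPC ratios fell close to the second HepLPC library and the first HepLPC library stood apart. Pkd1 shares 693 exon bases with Tsc2 on the opposite strand, and the strand setting of the counting is not given in the sources used here. Tsc2, a tumour suppressor that restrains mTOR signalling, had 1349 and 1345 counts in HepLPC and 2090 and 1879 in NPC_LPC, the same order as Pkd1. What share of Pkd1 counts falls in the common bases was not tested. Pkhd1, Bicc1 and Sec63 share 208, 349 and 173 exon bases with non-coding genes on the opposite strand.

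Bicc1 was the most abundant of the members in NPC_LPC. It encodes Bicaudal-C, an RNA-binding protein whose loss gives cystic kidneys in mice and which is known to regulate Pkd2 messenger RNA. The gene spans chr10:70922832-71159700 (minus strand). Its level was 215 and 346 CPM in HepLPC and 929 and 726 CPM in NPC_LPC. The groups did not overlap, with means of 280.3 ± 92.4 and 827 ± 143 CPM (SD, n = 2 each) and a log2 fold change of -1.56 (SE 0.34). Per length, Bicc1 had 28.9 and 47.7 FPKM in HepLPC and 124 and 100.1 FPKM in NPC_LPC. The level of Bicc1 was 9.84 and 12.6 times that of Pkd2 in HepLPC and 17.1 and 11.96 times in NPC_LPC, ranges that overlap.

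Cys1 did not separate the groups. It lies on chr12:24665833-24681813 and had 6.33 and 29.1 CPM in HepLPC and 19.4 and 20.3 CPM in NPC_LPC. Both NPC_LPC libraries fell inside the HepLPC range, whose ends differed by a factor of 4.60. The log2 fold change of -0.16 (SE 0.69) had the widest error among the members and was smaller than it.

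The glucosidase II genes and Sec63 overlapped between the groups. Prkcsh (chr9:22002806-22014222) had 183 and 321 CPM in HepLPC and 205 and 183 CPM in NPC_LPC. Ganab (chr19:8898071-8916672) had 330.1 and 537 CPM in HepLPC and 413 and 299 CPM in NPC_LPC. For both subunits the second HepLPC library was highest and the first NPC_LPC library next, so the libraries of one group differed more than the group means. The log2 fold change was 0.38 (SE 0.33) for Prkcsh and 0.29 (SE 0.34) for Ganab.

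The subunit ratio varied less than either subunit. The FPKM of Ganab over that of Prkcsh was 2.13 and 1.60 in HepLPC and 1.98 and 1.74 in NPC_LPC, with means of 1.87 ± 0.37 and 1.86 ± 0.17 (SD, n = 2 each). The FPKM of Bicc1 over that of Ganab, by contrast, was 0.361 and 0.369 in HepLPC and 1.29 and 1.41 in NPC_LPC. In HepLPC the catalytic glucosidase subunit was above Bicc1 in both libraries, and in NPC_LPC Bicc1 was above it in both.

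Sec63 had the most even level of the 9 genes. It lies on chr10:42761496-42832514 and had 304 and 281 CPM in HepLPC and 307 and 278 CPM in NPC_LPC. The means of 292 ± 15.8 and 293 ± 20.6 CPM (SD, n = 2 each) differed by less than the spread within either group.

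**Figure D2:**
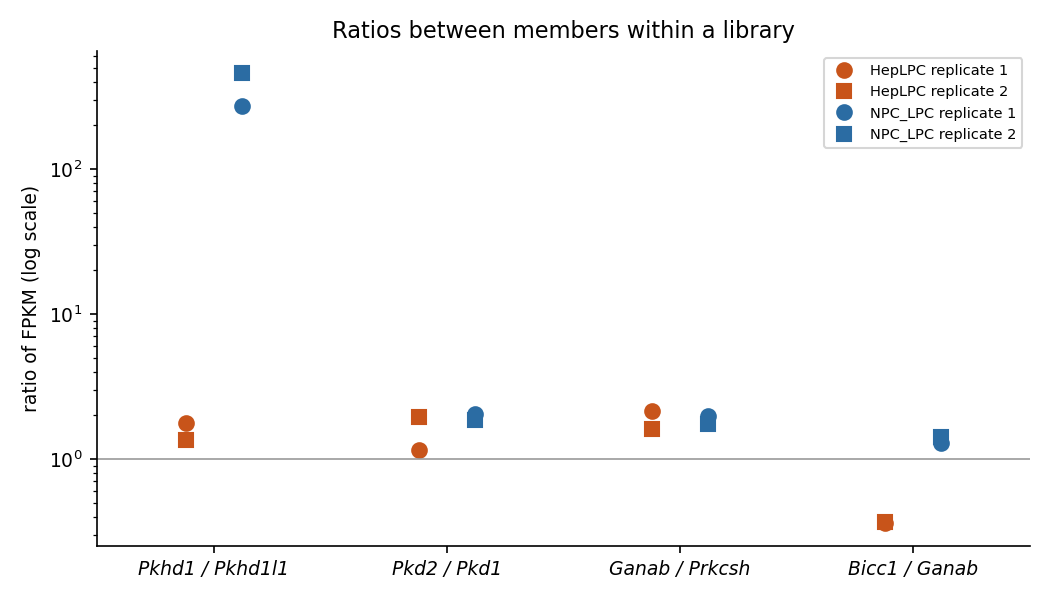
Ratios of length-scaled level (FPKM) between pairs of the members in each of the 4 libraries, on a log axis. Pkhd1 over Pkhd1l1 is 1.76 and 1.36 in HepLPC and 271 and 457 in NPC_LPC, Bicc1 over Ganab crosses 1, and Ganab over Prkcsh stays between 1.60 and 2.13.

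Ordered by mean FPKM, the members in HepLPC ran from Ganab (104.6) through Prkcsh (59.1), Sec63 (39.4), Bicc1 (38.3), Cys1 (6.20), Pkd2 (3.37), Pkd1 (2.24) and Pkhd1 (1.32) to Pkhd1l1 (0.865). Ganab was above Prkcsh within both HepLPC libraries, although their ranges overlapped across libraries. The order of Prkcsh and Sec63, of Sec63 and Bicc1, and of Cys1 with both Pkd2 and Pkd1 changed between the HepLPC libraries. Those pairs cannot be ordered. In NPC_LPC the order was Bicc1 (112), Ganab (84.0), Prkcsh (44.9), Sec63 (40.3), Pkd2 (7.83), Cys1 (6.44), Pkhd1 (5.94), Pkd1 (4.05) and Pkhd1l1 (0.0156). There Prkcsh was above Sec63 within both libraries, although their ranges overlapped. The range of Pkhd1 reached those of Cys1, Pkd2 and Pkd1. In both groups the reticulum genes were far above the polycystins and fibrocystin, and Pkhd1l1 was last.

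**Figure D3:**
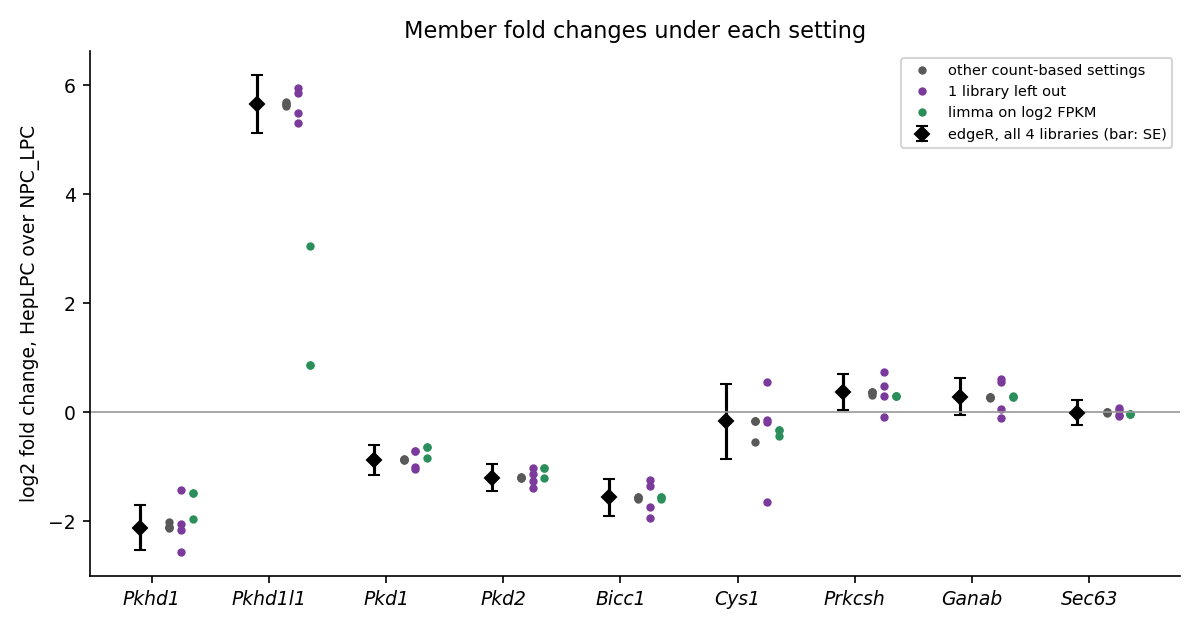
Log2 fold change of HepLPC over NPC_LPC for each of the 9 genes, with all 4 libraries in edgeR as diamonds (bar: SE) and, as points, the other count-based settings, fits with 1 library left out, and limma on log2 FPKM. By edgeR Pkhd1l1 stands at 5.66, Pkhd1 at -2.11, Bicc1 at -1.56, Pkd2 at -1.20 and Pkd1 at -0.87, and the other 4 lie between -0.16 and 0.38.

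Across the 9 members, log2 fold changes were above 0 for 3 and below 0 for 6, with a median of -0.16, against a median of -0.003 and 49.8% above 0 over the 12332 genes tested. The groups did not overlap for 5 members, against 56.4% of all tested genes, and 4 of these were lower in HepLPC, against 28.6% of all. The quasi-likelihood test of edgeR (Benjamini-Hochberg adjusted p below 0.05) called 1 member, Pkhd1l1, where 0.43% of all genes were called. DESeq2 called 4 members, Pkhd1, Pkhd1l1, Pkd2 and Bicc1, where it called 12.3% of all genes. Because the members were selected on this same contrast, nothing is read from these counts. The edgeR call of Pkhd1l1 was lost when either HepLPC library was left out, with an edgeR adjusted p of 0.129 without replicate 1 and 0.184 without replicate 2, and no gene of the whole table was called by edgeR then.

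The chromosome of Pkhd1l1 also leaned toward HepLPC. The 493 tested genes of chromosome 15 had a median log2 fold change of 0.64, the highest of 20 chromosomes, and 80.1% lay above 0. Pkhd1l1 exceeded that median by 5.02. Of the 10 nearest annotated genes with a row, 5 on each side, 6 were tested, 5 of them lay above 0 and 0 were called by edgeR. Ebag9 had a log2 fold change of 1.36, Eny2, a subunit of chromatin and messenger RNA export complexes, 1.20, and Nudcd1 1.01. Emc2, a subunit of a membrane protein insertase, was at 0.81, Tmem74 at 0.10 and Trps1, a GATA-type repressor, at -1.03. Sybu had 11 and 7 counts in HepLPC and 0 in both NPC_LPC libraries, while Trhr and Kcnv1 had no count and Csmd3 at most 3. The part of the chromosome-wide lean in the Pkhd1l1 difference was not tested. The other members' chromosomes had medians from -0.10 (chromosome 17, Pkd1) to 0.25 (chromosome 19, Ganab).

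**Figure D4:**
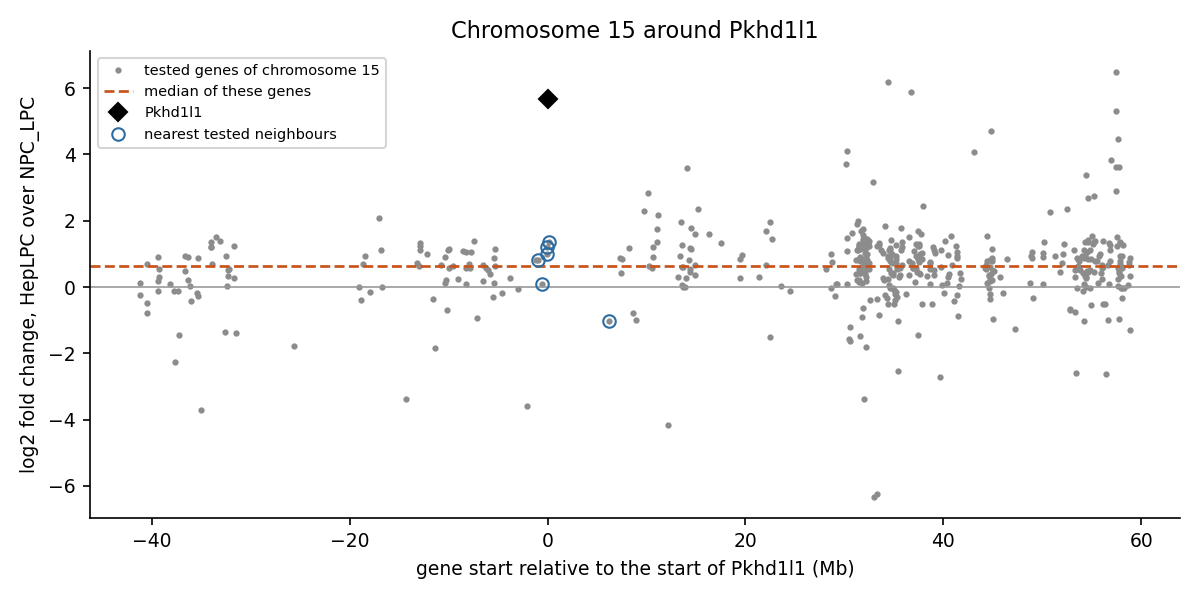
Log2 fold change of HepLPC over NPC_LPC for tested genes of chromosome 15 against the distance of each start from that of Pkhd1l1, in Mb, with the 6 tested neighbours circled and the median dashed. Most points lie above 0, with a median of 0.64, and Pkhd1l1 at 5.66 stands far above its neighbours, which lie between -1.03 and 1.36.

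The genes whose levels across the 4 libraries were most like those of Pkhd1l1 were ranked by Euclidean distance of log2(CPM + 0.5), each gene centred on its mean. Clic5, a chloride intracellular channel family member, was nearest at 0.164, followed by Mpzl2, an epithelial adhesion protein gene, at 0.423, Ccdc80 at 0.468, Gcnt3, a mucin glycosyltransferase gene, at 0.576 and Plac8 at 0.597. The median distance over the other tested genes was 4.45. Clic5 had 10.9 and 14.9 CPM in HepLPC and 0.165 and 0.148 CPM in NPC_LPC, where it rested on 3 counts in each library. Ccdc80, the most abundant of the 5, had 115 and 271 CPM against 9.98 and 7.87 CPM. The ranking rests on 4 libraries and is a description.

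Markers of other cell types were summed in each library. Over all 12332 tested genes, 2704 had an unadjusted p below 0.05 by edgeR. Of these 12332 genes edgeR called 0.43% and DESeq2 12.3%, and the counts for each marker list stand beside these shares. Of 14 leukocyte markers, 8 had no count anywhere, among them Cd3e, Cd3g, Cd4 and Cd8a. The summed level was 3.66 to 4.67 CPM in HepLPC and 1.39 to 2.69 CPM in NPC_LPC. The 2 tested, Cd79a and Csf1r, had log2 fold changes of 3.28 and 0.95. The groups did not overlap for either, as for 56.4% of all tested genes. Cd79a had 17 and 30 counts in HepLPC and 2 and 3 in NPC_LPC, so it passed the filter only through HepLPC. Ptprc, not tested, had 3 and 1 counts in HepLPC and 2 and 5 in NPC_LPC. EdgeR and DESeq2 called 0 of the 2 tested leukocyte markers, with 1 at an unadjusted p below 0.05. Hair cell markers had 27.6 and 67.1 CPM in HepLPC and 164 and 82.0 CPM in NPC_LPC, nearly all from Myo7a, opposite in order to Pkhd1l1. Endothelial markers summed to 13.1 to 17.9 CPM against 7.57 to 11.5 CPM, and stellate markers to 8.62 to 14.1 against 5.38 to 18.1 CPM. The tested endothelial markers, Kdr and Egfl7, were at 1.31 and 0.42. Of 3 stellate markers tested, 2 lay above 0, with Reln at 3.10 and Col1a1 at -1.31. Mesothelial markers, mostly Msln, summed to 216 and 826 CPM in HepLPC and 614 and 232 CPM in NPC_LPC. Of 5 mesothelial markers tested, 4 lay above 0, among them Bnc1 at 3.50 and Upk3b at 3.41, with Wt1 at -2.67. Upk3b had 15 and 48 counts in HepLPC and 6 and 0 in NPC_LPC, so it passed the filter only through HepLPC. In the stellate and mesothelial lists alike, edgeR called 0, DESeq2 called 1 higher, and 1 was at an unadjusted p below 0.05. Bile duct markers summed to 4168 to 6147 CPM in HepLPC and 5646 to 10764 CPM in NPC_LPC. Spp1, the secreted protein osteopontin, carried most of this sum in NPC_LPC, with 3024 and 904 CPM in HepLPC against 8939 and 4200 CPM. The keratin genes Krt19 and Krt7 went the other way, with log2 fold changes of 2.59 and 3.84, as did Tspan8 at 1.28. Krt7 lies on chromosome 15, whose tested genes leaned toward HepLPC. Of the 9 bile duct markers tested, 6 lay above 0, with a median of 0.44, and edgeR called 0 of them, with 5 at an unadjusted p below 0.05 and DESeq2 calling 2 higher and 1 lower. Epcam had at most 1.75 CPM, and Aqp1 and Sctr were near 0. Cftr had 25 counts (1.39 CPM) in HepLPC replicate 1, 2 in HepLPC replicate 2, and 2 and 3 in NPC_LPC. Hepatocyte markers summed to 244 and 252 CPM against 27.7 and 50.0 CPM, nearly all from Hnf4a, and Cyp2e1, Tat, Pck1, Tdo2 and Hpd had no count. The 3 hepatocyte markers tested, Hnf4a, Ttr and Apoa1, all lay above 0, with Hnf4a at 2.65. Ttr and Apoa1 passed the filter on low counts only through HepLPC, so nothing is read from their direction. Alb, not tested, had 41 and 2 counts in HepLPC and 2 and 3 in NPC_LPC. Apoa1 had 95 and 16 counts in HepLPC and 0 in both NPC_LPC libraries, and Ttr 22 and 27 against 0 and 1. EdgeR called 0 of the 3, with all 3 at an unadjusted p below 0.05 and DESeq2 calling 2 higher. The part of these cell types in the members' differences was not tested.

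Around the members, 11 lists of related genes held 173 further genes, of which 157 were tested. Their log2 fold changes were above 0 for 58 and below 0 for 99, with a median of -0.21. EdgeR called 0 of them, with 28 at an unadjusted p below 0.05, against 2704 of the 12332 tested genes. DESeq2 called 2 higher and 13 lower, or 9.55%, against 12.3% of all tested genes. The counts for each list below stand beside these same shares of all tested genes.

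Among 16 other genes of inherited cystic disease, 15 were tested, 6 above and 9 below 0, with a median of -0.42, 0 called by edgeR, 6 at an unadjusted p below 0.05 and 2 called lower by DESeq2. Col4a1, a basement membrane collagen gene, had 274 and 448 CPM in HepLPC and 995 and 2102 CPM in NPC_LPC, with a log2 fold change of -2.10. Alg5, a glucosyltransferase gene of the oligosaccharide precursor, was at 0.76. Of the other 6 polycystin family genes only Pkd1l1 was tested, at -1.56, and Pkd1l3, Pkd2l1, Pkd2l2 and Pkdrej had at most 3 counts in every library. Pkd1l1 reached at most 3.27 CPM, so nearly all polycystin RNA in these cells came from Pkd1 and Pkd2.

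The reticulum lists, counted without the members, differed in direction. The oligosaccharide and glucosidase list had 13 of 20 tested genes above 0 (median 0.19), and the translocon list had 8 of 18 (median -0.02), with Hspa5, the reticulum chaperone BiP, at -0.02 and Ssr3 at 0.05. Neither list had a call by edgeR or DESeq2, with 5 and 1 genes at an unadjusted p below 0.05. Glycoprotein folding and disposal had 3 of 18 above 0 (median -0.45), 0 called by edgeR, 2 at an unadjusted p below 0.05, and 1, Edem1, called lower by DESeq2. The chaperone genes Pdia3 and Calr were at -0.22 and -0.27.

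Of all 157 tested list genes, 99 lay below 0, and most genes of the ciliary lists did too. Intraflagellar transport, the motor system that builds the cilium, had 18 of 24 genes below 0 (median -0.31), and the nephrocystin and transition zone list, the gate at its base, 16 of 24 (median -0.26). EdgeR called 0 in each, with 5 in each at an unadjusted p below 0.05. DESeq2 called 2 lower and 1 higher, Ift27, in the first, and 5 lower in the second. Ift27 was at 1.10, Ift52 at 0.12 and Glis2 at -0.83. Ift27 lies on chromosome 15, whose tested genes leaned toward HepLPC (median 0.64), and the part of that lean was not tested. The list for transport of myristoylated ciliary proteins, the route of cystin, had 7 of 11 tested genes below 0 (median -0.34) and no gene called by edgeR or DESeq2 or at an unadjusted p below 0.05, with Arl2 at 0.20 and Nmt1 at 0.23.

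Bicaudal-C partners and the CCR4-NOT deadenylase, to which Bicaudal-C binds, had 8 of 14 genes above 0 (median 0.06), with no gene called by edgeR or DESeq2 or at an unadjusted p below 0.05. Cnot1, its scaffold, was at -0.42 and Cnot9 at 0.28. Calcium and cAMP signalling genes had 9 of 11 tested below 0 (median -0.50), 0 called by edgeR, 4 at an unadjusted p below 0.05 and 3 called lower by DESeq2, with Prkar1a at -0.08 and Gnas at -0.21. Transcription factors of ducts and cilia had 10 of 14 below 0 (median -0.56), 0 called by edgeR, 5 at an unadjusted p below 0.05, and 1 called higher and 2 lower by DESeq2, with Sox4 at -0.32. Sox9 was at -0.59, but its groups overlapped, with 109 and 115 CPM in HepLPC and 256 and 81.5 CPM in NPC_LPC, and without the first NPC_LPC library the order of the groups turns.

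**Figure D5:**
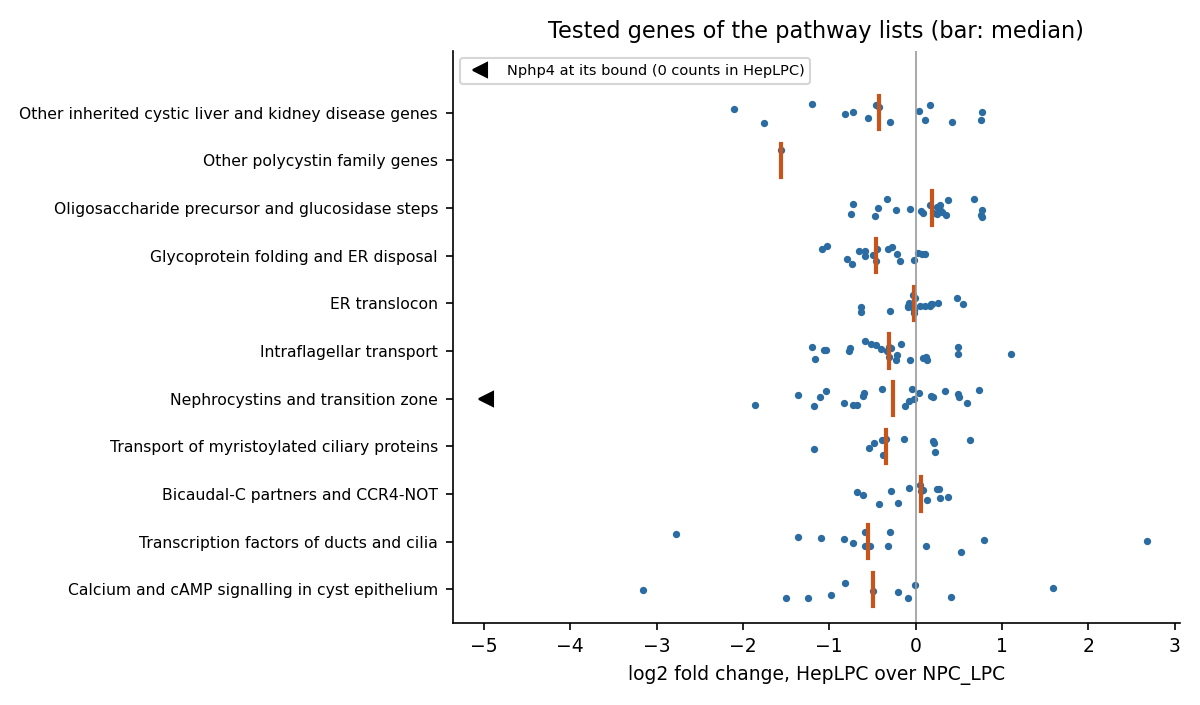
Log2 fold changes of HepLPC over NPC_LPC for the tested genes of the 11 related lists, with each point a gene and a bar at the median of each list. The points include the members Ganab, Prkcsh and Sec63, which the medians leave out. List medians lie between -1.56 (1 tested gene) and 0.19, and Nphp4, with no count in HepLPC, is drawn at its bound of -4.98.

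Depth was similar in all libraries, at 17575998 to 20625957 counts, and between 14070 and 14333 genes had a count. A count of 3 corresponds to 0.148 to 0.169 CPM. Replicates correlated across genes with a Pearson r of 0.955 in HepLPC and 0.9436 in NPC_LPC, where genes are not independent replicates.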

How the data were processed

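Per the file headers, the authors deposited read counts and FPKM (fragments scaled by transcript length and library size) for each gene symbol in 4 tables, 1 per library. Column sums of the whole-number counts differ between libraries. Libraries were paired-end and strand-keeping per the labels' protocols. The submitters' processing notes name mm10 with Trimmomatic, HISAT2, Cufflinks, HTSeq, and also DESeq. The sources used here give no versions, annotation or strand setting for the counting.

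The main test was edgeR's quasi-likelihood test (edgeR 4.0.16, R 4.3.3) on counts after TMM scaling and filterByExpr, with group as the only term, and p-values were adjusted by the Benjamini-Hochberg method over all 12332 tested genes with a threshold of 0.05. Of 21878 rows, 6043 had no count, and 2 repeat the symbol of another row and were kept. An exact test of 2 libraries against 2 cannot go below p = 0.333, so none was run. Alternatives were RLE factors, no filter, DESeq2 1.42.0, the replicate number as a block, each library left out, and limma 3.58.1 on log2(FPKM + 1) and log2(FPKM + 0.1). FPKM served otherwise only for levels between genes.

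The members and lists were chosen with earlier results of these data known. Named were all members, from each list any edgeR calls and the 2 genes of highest FPKM (a few such genes are not reported here), the 5 patterns nearest to Pkhd1l1, and 5 annotated neighbours with a row on each side of it. Other genes were named after their values were seen: Tsc2, Edem1, the marker genes and those in the closing observations. Gene models came from GENCODE M21 (GRCm38), positions for chromosome medians from RefSeq, which matched 21304 rows (97.4%), and promoters from RefSeq (GRCm38.p6).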

Additional observations from a re-analysis of the deposited data

How the results depend on the processing

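EdgeR called 53 genes, 66 with RLE factors, 593 without the filter on low counts, 1517 with DESeq2, 8 with limma on log2(FPKM + 1), 129 on log2(FPKM + 0.1), and 0 on log2(FPKM + 1) over all genes with a value. Leaving out each library gave 0 to 377 calls. The replicate number as a block gave 136 calls. Same-numbered libraries did not deviate together across genes (r = -0.034). With 2 libraries per group this cannot exclude a shared preparation, which the labels do not state. The member values that reversed were near 0 or rested on 1 library. Sec63 turned to 0.0046 with RLE factors, 0.0047 with DESeq2, 0.052 without HepLPC replicate 2 and 0.090 without NPC_LPC replicate 1. Cys1 turned to 0.57 without HepLPC replicate 1, and without HepLPC replicate 2 Ganab turned to -0.11 and Prkcsh to -0.085. Leaving out a library gave -1.65 to 0.57 for Cys1, -0.085 to 0.74 for Prkcsh, -0.11 to 0.61 for Ganab and -0.073 to 0.090 for Sec63. Pkhd1l1 ranged from 0.87 on log2(FPKM + 1), where all its values are below 1, to 5.96, Pkhd1 from -2.56 to -1.43, Bicc1 from -1.94 to -1.25, Pkd2 from -1.39 to -1.02 and Pkd1 from -1.03 to -0.64. Pkhd1l1 lost its call in 4 of the 11 alternatives: the same FPKM scale with either filter (limma adjusted p 0.069 and 0.131) and without either HepLPC library. Without the filter edgeR also called Pkhd1 (adjusted p 0.024), Pkd2 (0.0499) and Bicc1 (0.043), and without NPC_LPC replicate 1 it called Pkhd1 (0.0127). The cause was not tested. In NPC_LPC, depth limits Pkhd1l1, which rests on 7 and 6 counts.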

Other observations

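Several genes of the related lists separated the groups more widely than most members, and were chosen after their values were seen. Nphp4, a transition zone gene of nephronophthisis, had no count in either HepLPC library and 82 and 123 counts in the NPC_LPC libraries, where it stood at 5.29 ± 1.12 CPM (SD, n = 2). With the floor of 3 counts in each HepLPC library it was at least 31.5-fold lower in HepLPC. Tmem67, the next lowest of its list, was at -1.86 on the log2 scale. Of the 10 nearest genes with a row, 8 were tested. Kcnab2, the adjacent gene with a row on one side, starts 86.0 kb from the start of Nphp4. It had 1 and 0 counts in HepLPC and 113 and 50 in NPC_LPC. The other 7 tested neighbours lay between -1.06 (Icmt) and 0.29 (A430005L14Rik), with Chd5 at -0.07 and Lrrc47 at -0.14. Chromosome 4, which holds these genes, had a median log2 fold change of -0.61 over 760 tested genes, the lowest of 20. The edgeR adjusted p of Nphp4 was 0.058, and DESeq2 called it.

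Foxj1, a master regulator of motile cilia, had 1.39 and 20.2 CPM in HepLPC and 49.7 and 98.2 CPM in NPC_LPC, so the HepLPC libraries lay far apart but did not reach the NPC_LPC range. Adcy3, an adenylyl cyclase gene of primary cilia, had 0.944 and 0.789 CPM in HepLPC and 2.63 and 13.0 CPM in NPC_LPC.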
